A study of Caenorhabditis elegans with 6 samples.

Results

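The genes described here drive, restrain or carry out the cell cycle and DNA replication, and were examined in RNA from sorted RIS neurons of Caenorhabditis elegans against RNA from whole larvae. RIS is a single interneuron that has left the cell cycle for good. Members were chosen by gene symbol alone: names that start with mcm-, orc-, cdk-, cdc-, cyb-, cya-, cki-, plk-, air-, rnr-, pole-, psf- or hcp- (except hcp-3) and go on with a digit, plus cyd-1, cye-1, pcn-1, lin-35, efl-1, dpl-1, fzr-1, fzy-1, bub-1 and knl-1. The authors' deposited table of the comparison holds 62 such genes among 12072. Because names decided membership, 14 of the 62 carry a cdk or cdc name but are known for other work, and they are described apart from the 48 with roles in division. Under the current names of the reference, 9 further genes fit the naming rule and were not analysed here, cye-1 and cdk-2 among them. Another 4 genes that fit it now (cdc-50.B, cdk-14, mcm-3AP and pole-4) stand in the table under sequence names, were not counted as members, and missed the adjusted threshold.

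The labels list 3 libraries of RIS neurons, sorted by flow cytometry out of dissociated first-stage (L1) larvae of a strain called RIS::mKate, in which the flp-11 promoter restricts the mKate marker to RIS. The other 3 libraries came from whole L1 larvae of the N2 strain, frozen over liquid nitrogen. Eggs of both groups were freed with hypochlorite and left to hatch overnight in the buffer M9, so larvae of both groups had no food when taken. The labels' sorting notes name the AVK neuron and mCherry where other labels name RIS and mKate. Nothing says that the libraries of a group came from separate cultures, so the p-values reflect the scatter of these libraries alone, and that scatter may be technical. The table holds no values per library, so spread, depth and overlap of single libraries cannot be shown. For every gene it gives a log2 fold change (positive where RIS was higher), a mean expression as log2 CPM (counts scaled to the size of the library), an F score, its p-value and the false discovery rate over all genes, called the adjusted p here.

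In a dividing cell, cyclin D with CDK-4 and cyclin E with CDK-2 carry the cell past G1, cyclins A and B with CDK-1 carry it into mitosis, and the APC ubiquitin ligase ends mitosis by destroying cyclins. Replication origins are licensed in G1, when the origin recognition complex (ORC) and CDC-6 load the MCM helicase. Neurons stay out of the cycle behind brakes that include CDK inhibitors, the Rb protein with E2F and DP, and the APC bound to its Cdh1 activator. Larvae that hatch without food hold their blast cells in arrest, and the CDK inhibitor cki-1 is part of that arrest.

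Of the 62 members, 13 (21.0%) differed at an adjusted p below 0.05, against 36.2% of all those in the authors' deposited table. Among them, 5 were higher in RIS (9.84% of all genes were) and 8 lower (26.4% of all genes were). The rises were fzr-1, efl-1, orc-5, cdk-9 and cdc-42, and the falls were orc-1, orc-4, pole-2, pole-1, knl-1, plk-3, cdc-14 and cdk-11.1. The other 49 members passed in neither direction, 5 of them at an unadjusted p below 0.05 with a higher value and 1 with a lower value. In all 19 members had such a p, or 30.6%, against 46.1% of all genes. The members' median log2 fold change was −0.32 and that of all genes −0.78, so the typical gene of the authors' deposited table lies below 0. Measured from that median, with an approximate standard error, 10 members were higher and 5 lower, together 15 of 62, where 16.6% of all genes were higher and 20.3% lower (36.8% together). Fold changes below are as deposited.

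**Figure D1:**
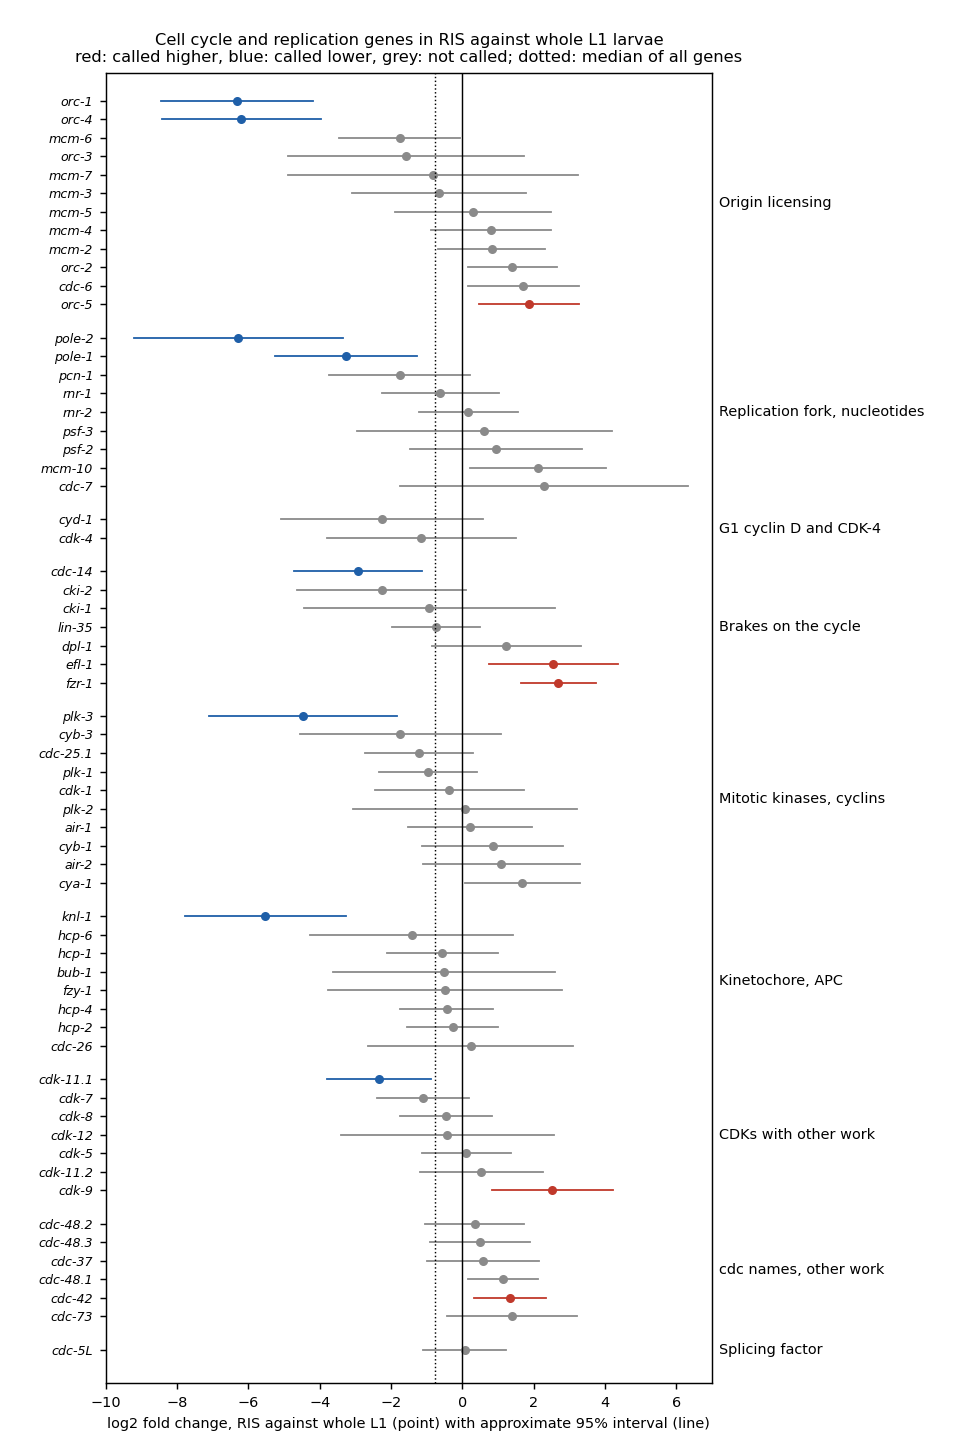
Log2 fold change, RIS against whole L1, of the 62 members (points) with approximate 95% intervals (lines), grouped by role. Red members were called higher, blue ones lower and grey ones neither; the dotted line is the median of all genes at −0.78. Most intervals cross 0, and 4 falls lie below −5.

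The intervals show how far a call that was missed can be read. An approximate 95% interval lay wholly within a 4-fold change either way for 10 of the 62 members, against 13.4% of all genes. For the remaining uncalled members the table leaves changes of more than 4-fold possible. Mean expression was ordinary, with a median of 3.48 log2 CPM for the members and 3.57 for all genes. Approximate levels in each group were computed from the mean CPM and the fold change with equal weight for the groups. Their sum over the 48 genes of division was 459 CPM in RIS and 555 CPM in whole L1.

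**Figure D2:**
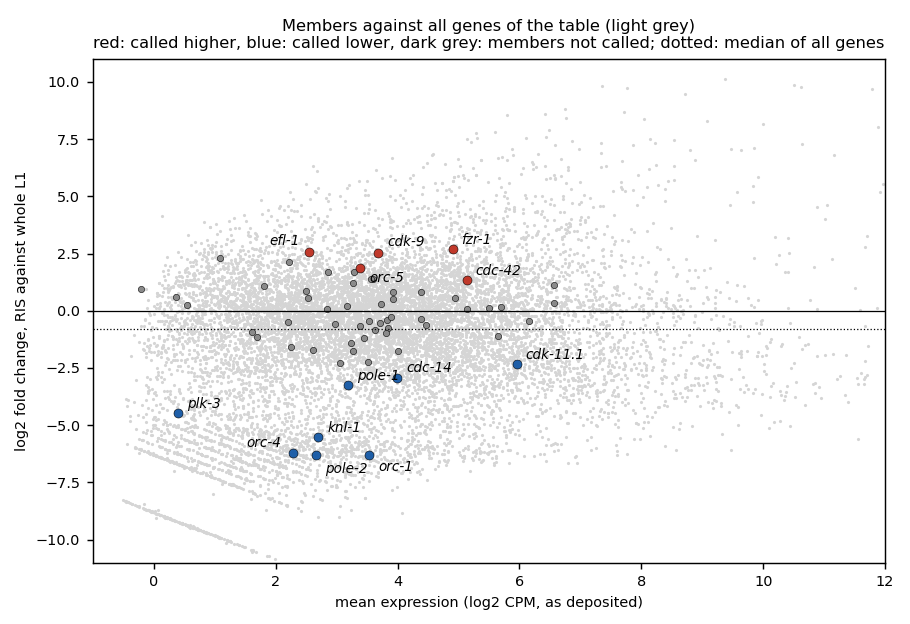
Mean expression (log2 CPM) against log2 fold change for all 12072 genes (light grey) and the 62 members, coloured by call. The called falls orc-1, orc-4, pole-2, knl-1 and plk-3 are genes at few RIS reads. Genes with the fewest reads form slanted lines at the lower left, while fzr-1, cdc-42 and cdk-11.1 lie to the right.

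Marker genes fitted the labels in part. All 6 RIS markers were higher, flp-11 by a log2 fold change of 9.75 and aptf-1 by 8.59 in the authors' deposited table, and so were all 8 panneuronal genes. Their summed approximate level was 88967 CPM in RIS against 222 CPM in whole L1 for the RIS list, and 5712 against 118 CPM for the panneuronal list. Most of each RIS sum came from 1 gene, flp-11 with 78821 CPM and egl-3 with 4544 CPM. The flp-11 promoter is also the one that restricts the sorting marker. Lists of other tissues had lower sums in RIS. Summed levels in RIS and whole L1 were 4649 and 8261 CPM for 5 body wall muscle genes (4 lower), 417 and 3735 CPM for 7 hypodermal and seam genes (3 lower, 1 higher), 315 and 3626 CPM for 6 intestinal genes (5 lower), and 297 and 1738 CPM for 5 pharyngeal genes (4 lower, 1 higher). The muscle sum in RIS is mostly the myosin gene unc-54, named after its values were seen, which by the authors' deposited table lay on the other side without passing (log2 0.98, adjusted p = 0.0913), at 3846 CPM in RIS and 1943 CPM in whole L1. For 9 germline genes the sums were 115 and 214 CPM and none passed the adjusted threshold in the authors' edgeR-format test, with 1, glh-1, lower at an unadjusted p below 0.05. That gene carries the lower sum (56.7 and 170 CPM), while 6 of the 9 lay above 0 and the list's median was 0.84. Levels computed this way cannot reach 0. The share of these tissues in the members' values was not tested. Whether fewer cells of a type or less RNA per cell lowered a value cannot be told apart in such samples.

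Origin licensing genes of a single complex had calls in both directions. ORC is the ring of proteins that marks an origin, and 2 of its 5 measured subunits fell while 1 rose. Of all genes 26.4% fell and 9.84% rose, so these are small numbers near those shares. For orc-1, which spans III 10643002 to 10646107 on the plus strand in the table's coordinates, the authors' deposited table put the log2 fold change at −6.31 (approximate 95% range −8.45 to −4.18, adjusted p = 0.00476). Its approximate level was 22.8 CPM in whole L1 and 0.288 CPM in RIS. For orc-4, at III 10646170 to 10648861 on the same strand, the authors' deposited table gave −6.20 (range −8.43 to −3.96, adjusted p = 0.00527), from 9.64 to 0.131 CPM. Both subunits were thus almost lost from the RIS libraries, which held about 10 to 14 reads of orc-1 and 4 to 6 of orc-4 by an estimate from the spacing of low values. Folds at so few reads are uncertain, and none is given in linear form here. Genes at few RIS reads were limited to large falls by definition, so their lower calls (1411 of 1424) follow largely from how that class was set.

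The opposite held for orc-5, which rose 3.68-fold (log2 1.88, range 0.47 to 3.29, adjusted p = 0.0459) by the authors' deposited table, from about 4.47 CPM in whole L1 to 16.4 CPM in RIS. The subunit gene orc-2 lay on the same side but was not called (1.41, range 0.16 to 2.66, adjusted p = 0.0788), and orc-3 was not called either (−1.58, adjusted p = 0.426), as the authors' deposited table lists them. The ATPase gene cdc-6, whose product joins ORC to load the helicase, had 1.71 (range 0.15 to 3.27, adjusted p = 0.0850) there. Against the median of all genes, orc-2 and cdc-6 were called higher, and the calls on orc-1, orc-4 and orc-5 held.

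None of the 6 genes of the MCM helicase ring, mcm-2 to mcm-7, passed the adjusted threshold in the authors' edgeR-format test, where 36.2% of all genes did. Among them mcm-6 was lower at an unadjusted p below 0.05. The authors' deposited table gave 0.83 for mcm-2, 0.80 for mcm-4, 0.30 for mcm-5, −0.65 for mcm-3, −0.83 for mcm-7 and −1.76 for mcm-6 (unadjusted p = 0.0451). Their approximate levels in RIS ran from 7.37 to 26.5 CPM, so transcripts of every ring subunit were counted in the sorted libraries. The interval of mcm-7, from −4.88 to 3.23, was among the widest.

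Both members that encode subunits of DNA polymerase epsilon, the enzyme that copies the leading strand, fell, while its subunit gene pole-4, listed under the sequence name Y53F4B.3, was not called by the authors' deposited table (0.89, adjusted p = 0.368). The catalytic subunit gene pole-1 had a log2 fold change of −3.26 (9.59-fold lower, range −5.25 to −1.27, adjusted p = 0.0222) by the authors' deposited table, from about 16.6 CPM in whole L1 to 1.73 CPM in RIS. Its partner pole-2, at IV 8682239 to 8686610 on the minus strand, had −6.28 (range −9.22 to −3.35, adjusted p = 0.00884) by the authors' deposited table, with an estimated 5 to 8 RIS reads. Against the median of all genes pole-1 lost its call (adjusted p = 0.0567) and pole-2 kept it.

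The remaining fork genes went uncalled. In the authors' deposited table the sliding clamp PCNA (pcn-1) had −1.76 (range −3.75 to 0.23, adjusted p = 0.148) and the replication factor mcm-10 had 2.12 (range 0.21 to 4.04, adjusted p = 0.0823). The kinase cdc-7, which fires licensed origins, had 2.30 with an interval from −1.74 to 6.33. The GINS subunit genes psf-2 (0.94) and psf-3 (0.61) had low means there, below 1 log2 CPM. Ribonucleotide reductase, which makes deoxynucleotides, stayed within a 4-fold interval for its small subunit rnr-2 (0.17, range −1.22 to 1.56) and had −0.61 for the large subunit rnr-1 in the authors' deposited table. The approximate level of rnr-2 was 55.2 CPM in RIS and 49.1 CPM in whole L1.

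**Figure D3:**
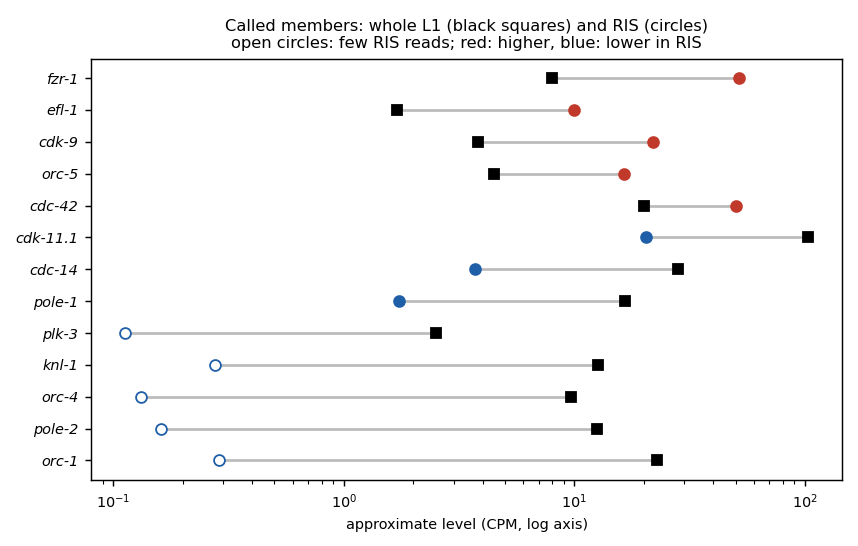
Approximate levels (CPM, log axis) of the 13 called members in whole L1 (black squares) and RIS (circles, red for higher and blue for lower). The 5 open circles stand for genes at few RIS reads, at 0.113 to 0.288 CPM; the called rises reach 9.99 to 51.8 CPM in RIS.

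Cyclin D (cyd-1) and CDK-4, which together start the cycle after hatching, were not called. The authors' deposited table gave −2.26 for cyd-1 (range −5.09 to 0.57, adjusted p = 0.188) and −1.15 for cdk-4 (adjusted p = 0.471), and the approximate 95% range of cyd-1 holds falls of several fold.

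Among 7 genes of the brakes on the cycle, 2 rose and 1 fell, where 9.84% of all genes rose and 26.4% fell. The Cdh1 orthologue fzr-1, which keeps the APC active outside mitosis, had the smallest adjusted p of the 5 rises. It rose 6.47-fold (log2 2.69, range 1.64 to 3.75, adjusted p = 0.00612) by the authors' deposited table, from about 8.01 CPM in whole L1 to 51.8 CPM in RIS, and was the only member called higher at an adjusted p below 0.01. The gene lies at II 9640167 to 9644466 on the minus strand, and its last 4 bases in the table overlap the end of ZK1307.7, which points the other way. In the authors' deposited table ZK1307.7 rose by 9.49 (range 8.29 to 10.68), to about 841 CPM in RIS against 1.17 CPM in whole L1. In the WBcel235 annotation the overlap is 67 bases and falls past the coding ends of both genes. Whether reads were counted by strand is not given in the sources used here, and the part of ZK1307.7 reads in the fzr-1 value was not tested.

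The E2F gene efl-1 rose 5.87-fold (log2 2.55, range 0.74 to 4.37, adjusted p = 0.0383) by the authors' deposited table, from about 1.70 to 9.99 CPM. Its partner, the DP gene dpl-1, had 1.23 (range −0.85 to 3.32, adjusted p = 0.322) there, and the Rb gene lin-35, with which both form a repressor, had −0.74 (range −1.97 to 0.49, adjusted p = 0.313). In the table's spans, T23G7.2 overlaps dpl-1 by 2656 bases and C32F10.4 overlaps lin-35 by 1582 bases, both on the opposite strand. These are whole gene spans, and whether exons overlap was not examined. Reads from any shared exon could not be told apart without strand.

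The phosphatase gene cdc-14, which in the worm keeps precursor cells quiescent, went the other way. It was 7.60-fold lower (log2 −2.93, range −4.72 to −1.13, adjusted p = 0.0225) by the authors' deposited table, from about 28.2 to 3.70 CPM. Its call ended relative to the median of all genes (adjusted p = 0.0642). On the same strand, 570 bases of its span overlap C17G10.13, which was lower too in the authors' deposited table, at an estimated 3 to 4 RIS reads. The CDK inhibitor genes cki-1 and cki-2 lie next to each other on chromosome II and were not called. The authors' deposited table gave −0.93 for cki-1 (range −4.44 to 2.59, adjusted p = 0.670) and −2.27 for cki-2 (range −4.62 to 0.09, adjusted p = 0.121), with approximate RIS levels of 2.12 and 2.85 CPM.

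Mitotic cyclins and kinases were mostly uncalled, with 10% of them called against 36.2% of all genes (26.4% called lower). Of 10 genes, plk-3 alone passed the threshold, at −4.48 (range −7.11 to −1.84, adjusted p = 0.0195) by the authors' deposited table. This Polo-like kinase gene had one of the lowest means of the members, 0.39 log2 CPM, and an estimated 4 to 5 RIS reads. Its relatives plk-1 (−0.96, adjusted p = 0.246) and plk-2 (0.08, adjusted p = 0.971) were not called there. The mitotic kinase cdk-1 had −0.36 (range −2.45 to 1.72), with about 18.2 CPM in RIS and 23.4 CPM in whole L1. Its cyclins lay on both sides of 0 in the authors' deposited table, with cya-1 at 1.69 (adjusted p = 0.0965), cyb-1 at 0.85 and cyb-3 at −1.74. The phosphatase gene cdc-25.1, which activates CDK-1, had an adjusted p of 0.190 (range −2.72 to 0.31), and the Aurora kinase genes air-1 and air-2 had ranges from −1.53 to 1.96 and from −1.11 to 3.31 in the authors' deposited table.

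At the kinetochore, which ties chromosomes to the spindle, the scaffold gene knl-1 fell. The authors' deposited table gave −5.53 (range −7.79 to −3.28, adjusted p = 0.00650) at III 8250636 to 8254286, from about 12.7 to 0.275 CPM, with an estimated 9 to 13 RIS reads. Of the other 7 genes of this group none passed the adjusted or the unadjusted threshold in the authors' edgeR-format test. The group thus had 12.5% called, against 36.2% of all genes. The CENP-F-like genes hcp-1 (−0.56) and hcp-2 (−0.27), the CENP-C gene hcp-4 (−0.44) and the condensin gene hcp-6 (−1.42) lay below 0 in the authors' deposited table, as did the checkpoint kinase bub-1 (−0.52) and the APC activator fzy-1 (−0.47). The APC subunit gene cdc-26 had 0.23 there. For hcp-2 and hcp-4 the intervals, −1.54 to 1.01 and −1.74 to 0.85, exclude a 4-fold change.

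Genes named for CDKs but known mainly for transcription or neuronal work gave 1 rise and 1 fall in 7. The shares over all genes were 9.84% higher and 26.4% lower. The kinase cdk-9, which with cyclin T releases paused RNA polymerase, rose 5.75-fold (log2 2.52, range 0.83 to 4.22, adjusted p = 0.0315) by the authors' deposited table, from about 3.81 to 21.9 CPM. The kinase gene cdk-11.1 fell 5.05-fold (log2 −2.34, range −3.79 to −0.88, adjusted p = 0.0242) there, from about 103 to 20.5 CPM, and lost its call relative to the median of all genes (adjusted p = 0.0909). Its paralogue cdk-11.2 had 0.54 (range −1.18 to 2.25), and the difference between them was not tested. The TFIIH kinase cdk-7 (−1.11), the Mediator kinase cdk-8 (−0.46) and cdk-12 (−0.42) went uncalled in the authors' deposited table.

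The neuronal kinase cdk-5, which acts in axonal transport of synaptic cargo, had a log2 fold change of 0.11 (range −1.13 to 1.35, adjusted p = 0.892) by the authors' deposited table. Its approximate level in whole L1 was 43.5 CPM, and 1562 bases of its span overlap kel-3 on the other strand. Its activator gene cdka-1, no member by the naming rule, rose 15.2-fold (log2 3.92, range 2.75 to 5.10, adjusted p = 0.00380) there, from about 5.70 to 86.6 CPM.

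Of 7 genes with cdc names and other work, all had positive values and 1 passed. Over all 12072 genes, 4385 had positive values and 9.84% were called higher. The AAA ATPase genes cdc-48.1 (1.14, adjusted p = 0.0700), cdc-48.2 (0.35) and cdc-48.3 (0.49) were not called in the deposited comparison. Whether reads were split between any related copies was not tested. The Hsp90 cochaperone gene cdc-37 had 0.57, the Paf1 complex gene cdc-73 had 1.40 and the splicing factor gene cdc-5L had 0.07 in the authors' deposited table. Against the median of all genes, cdc-48.1 was called as well.

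**Figure D4:**
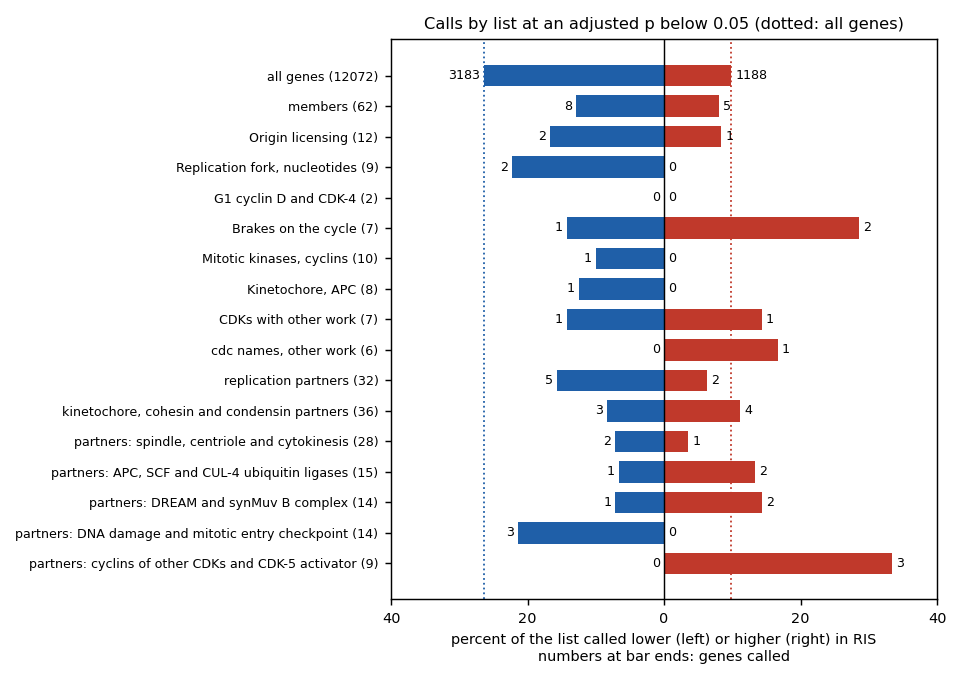
Percent of each list called lower (blue, left) or higher (red, right) in RIS, with list sizes in parentheses, numbers of genes at the bar ends and dotted lines for all genes. The 62 members had 8 lower and 5 higher. The largest share of rises, 3 of 9 genes, was in the list of other cyclins and the CDK-5 activator, which also holds the kinase gene pct-1.

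Other genes of the same pathways gave a similar picture. Of 148 genes in 7 lists, 14 were higher and 15 lower in the authors' deposited table, or 19.6% together against 36.2% of all genes, with a median of 0.12. Against the median of all genes 28 rose and 11 fell. The counts of each list below stand beside 9.84% of all genes higher and 26.4% lower.

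In replication, 2 of 32 partners rose and 5 fell. Topoisomerase II (top-2, 2.28) and the single-strand binding protein gene rpa-2 (2.05) rose in the authors' deposited table, to about 107 and 53.5 CPM. The falls there included the translesion polymerase gene polk-1 (−5.28, adjusted p = 0.00580), mus-101 (−6.29) and evl-18 (−5.94), the last 2 at few RIS reads. The polymerase alpha gene pola-1 and the clamp loader gene rfc-1 were the other 2 falls; both were named after their values were seen.

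Of 36 kinetochore, cohesin and condensin partners, 4 rose and 3 fell. The CLASP gene cls-2, which steadies microtubules and is also at work outside mitosis, rose 8.65-fold (log2 3.11, adjusted p = 0.00445) by the authors' deposited table, to about 121 CPM. With coh-4 (3.16), the cohesin loader gene pqn-85 (1.55) and the condensin gene kle-2 (1.82), it made up the rises there, these last 3 named after their values were seen. The falls were the kinetochore genes mis-12 and kbp-2 and the cohesin gene scc-1 in the authors' deposited table, all 3 at few RIS reads. MIS-12 and KNL-1 belong to one kinetochore network, and mis-12 and kbp-2 had an estimated 2 RIS reads each, so no fold is given. Named after their values were seen, the microtubule-binding member ndc-80 of that network (−0.12, range −2.56 to 2.31) and knl-3 (1.74, adjusted p = 0.141) went uncalled in the authors' deposited table.

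Among 14 DREAM and synMuv B genes, 2 rose and 1 fell. The DREAM subunit gene lin-9 (2.14, adjusted p = 0.0175) and the E2F gene efl-2 (2.93, adjusted p = 0.0360) rose with efl-1, and the atypical E2F gene efl-3 fell (−6.37, range −8.46 to −4.28, adjusted p = 0.00450) by the authors' deposited table, at an estimated 8 to 12 RIS reads. So of 3 measured efl genes 2 rose and 1 fell.

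Of 14 DNA damage and mitotic entry genes none rose and 3 fell, with 1 higher at an unadjusted p below 0.05 in the authors' edgeR-format test. The falls were 21.4% of the list, against 26.4% of all genes, and 9.84% of all genes rose. The falls were the inhibitory CDK-1 kinase gene wee-1.3, the checkpoint loader gene hpr-17 and the BRCA1 partner gene brd-1 (−6.35, adjusted p = 0.00939) by the authors' deposited table. All 3 are genes at few RIS reads. By its degrees of freedom and the spacing of low values, hpr-17 had no RIS reads and wee-1.3 about 1, so no fold is given for them.

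Ubiquitin ligase genes gave 2 rises and 1 fall in 15, with skr-1 (1.69) and apc-11 (2.28) higher and the APC gene emb-27 (−4.13) lower in the authors' deposited table. In 28 spindle, centriole and cytokinesis genes the microtubule depolymerase gene klp-7 rose (1.89) and tpxl-1 (−3.87) and the centrosome gene spd-2 (−3.62) fell there. The approximate RIS level of tpxl-1 was only 0.179 CPM, within the 0.113 to 0.288 CPM of the called members at few RIS reads. The size of its fall is therefore uncertain. The list of cyclins of other CDKs and the CDK-5 activator also holds genes of other kinds, such as the kinase gene pct-1. Its 9 genes had 3 rises and 0 falls, or 33.3% called against 36.2% of all genes. None was lower at an unadjusted p below 0.05 in the authors' edgeR-format test. Beside cdka-1 the rises were the cyclin T gene cit-1.2 (2.11, adjusted p = 0.0225), which partners cdk-9, and the PCTAIRE kinase gene pct-1 (1.64, adjusted p = 0.0265), which acts beside cdk-5 in axons, in the authors' deposited table.

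**Figure D5:**
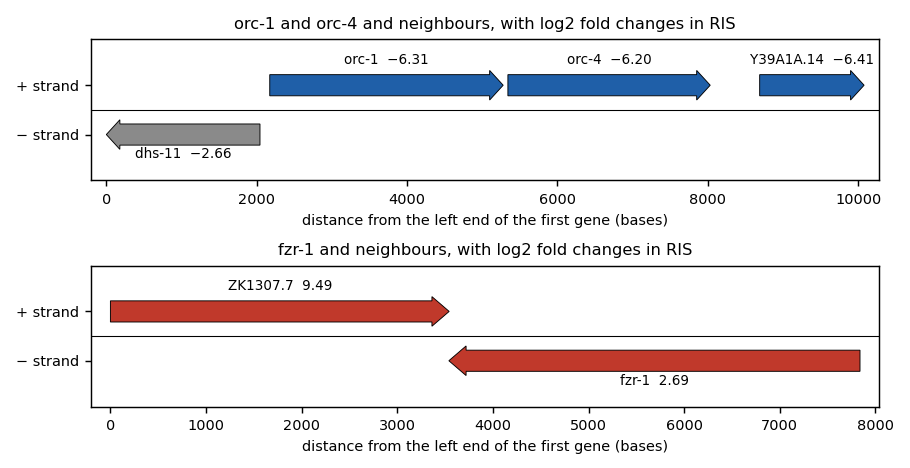
Spans of genes around orc-1 and orc-4 (top) and fzr-1 (bottom) by distance from the left end of the first gene (bases), with strand as arrow direction and the log2 fold change beside each name. Blue genes were called lower, red higher and grey neither; orc-1, orc-4 and Y39A1A.14 follow each other on 1 strand with values from −6.41 to −6.20, and the ends of ZK1307.7 and fzr-1 meet.

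Some members lie next to each other, with and without like values. Genes pcn-1 (−1.76) and cdc-73 (1.40), 150 bases apart, were uncalled on opposite sides of 0. Beside the called orc-5 (1.88), cyb-1 (0.85) lies 626 bases off and was uncalled. The neighbours cki-1 (−0.93) and cki-2 (−2.27) were both uncalled. A gap of 62 bases separates orc-1 from orc-4 on the same strand, and the next gene of the table, 657 bases further on, is Y39A1A.14. It was lower as well (−6.41, range −8.73 to −4.10, adjusted p = 0.00527) by the authors' deposited table, at an estimated 4 to 6 RIS reads. On the other side, dhs-11 points away, 129 bases from orc-1, and was not called (−2.66, adjusted p = 0.166). The 2 ORC falls are thus falls of neighbours. Both Y39A1A.14 and dhs-11 were named after their values were seen. Over all members, 16 of 62 (25.8%) overlapped another gene of the table, against 21.2% of all genes, and 5 of the 13 called members did. Leaving out overlapping genes left 3 members higher and 5 lower (926 and 2586 of all genes).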

How the data were processed

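The deposited values are a single table of the authors' comparison with 12 columns. Per the file headers it holds log2 fold changes, mean log2 CPM, F scores, p-values and false discovery rates, the format of the authors' edgeR quasi-likelihood test. The sources used here do not give the aligner, counting tool, genome build or annotation. Members, role lists and tests were chosen with earlier results of these data known. As no counts per library were at hand (0 such columns), the fixed design's branch for a deposited comparison was used, and the depth of each library is unknown.

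The adjustment was recomputed from the deposited p-values with a largest difference of 3.44e-15. An approximate standard error was the log2 fold change divided by the root of F, with denominator degrees of freedom recovered from the authors' F score and p-value (6.76, or 5.76 for 170 genes, all lower in RIS). A loss of 1 fits an all-zero group of 2 libraries, whereas the labels list 3, so which libraries entered the fit is not known. The spacing of log2 fold change plus log2 CPM above those 170 genes gave approximate RIS read numbers, taking steps of 2.52 and 2.97 (log2) as 1 read in either of 2 libraries. Genes far lower in RIS and reachable by 10 reads or fewer, with a margin of 0.1 (1424), are called genes at few RIS reads. No fold is printed for those at 3 or fewer. Genes with smaller falls were not entered in this class whatever their RIS level, among them tpxl-1 (−3.87, about 0.179 CPM in RIS). Group levels are approximate, not per length, and would shift by at most 1.25-fold with 2 RIS libraries. All 62 members were found in the Ensembl WBcel235 annotation on the same chromosome, and 47 shared a start or end; coordinates are those of the table, which names no build.

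Every member could be named. Of each partner list the 4 smallest adjusted p and up to 2 calls against the list's main direction were named, and of each marker list the 4 smallest; neighbours were named for their position. The single values of 1 called member are not reported here. The computations ran in Python 3.11.15 with scipy 1.17.1, numpy 2.4.6 and pandas 2.3.3, were drawn with matplotlib 3.10.9, and were tested on simulated data.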

Additional observations from a re-analysis of the deposited data

How the results depend on the processing

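No paired analysis was possible because the table holds no values per library, and for the same reason no library could be left out and no other count tool or normalization run. Recomputing the adjustment or asking for at least a 2-fold change as well moved none of the counts. An adjusted p below 0.01 left 1 member higher and 4 lower (all genes 591 and 1716, partners 2 and 9). Genes at or above median expression gave 3 members higher and 2 lower in 27 (partners 11 and 3, all genes 917 and 1431 in 6036). Relative to the median of all genes 10 members were higher and 5 lower (28 partners and 1999 of all genes higher), and the members' median moved from −0.32 to 0.46. Without genes at few RIS reads 3 members were lower (partners 6, all genes 1772), and the members' median was 0.08. Without overlapping genes, an alternative added after the data were seen, 3 of 46 members were higher and 5 lower, and 9 partners were higher and 10 lower. Of 9508 genes 926 were higher and 2586 lower at this setting. Relative to the median of all genes 11 uncalled members changed sign and stayed uncalled: cdk-12 (0.36), cdk-8 (0.32), lin-35 (0.038), bub-1 (0.26), fzy-1 (0.31), hcp-1 (0.22), hcp-2 (0.51), hcp-4 (0.34), cdk-1 (0.41), mcm-3 (0.13) and rnr-1 (0.16). There 5 members gained a call (orc-2, cdc-6, mcm-10, cya-1 and cdc-48.1) and 3 lost one (pole-1, cdc-14 and cdk-11.1). The fewer calls at the stricter threshold and in smaller gene sets follow from their construction; the cause of other changes was not tested. Few reads in RIS limit orc-1, orc-4, pole-2, knl-1 and plk-3, so the size of their falls is uncertain. Of all 1424 genes at few RIS reads, a class limited to large falls, 1411 were called lower. That count follows largely from how the class was set, so no conclusion about these members is drawn from it.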
